A study of Mus musculus with 5 samples.

Results

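The miR-29 family was followed through T cell activation with 3 probes, 1org-29a, 1org-29b and 1org-29c, of the 171 microRNA probes measured. They were chosen by name, as the probes whose ID after the prefix is 29a, 29b or 29c. MicroRNAs are short RNAs that guide Argonaute proteins to messenger RNAs, mainly by pairing of the seed, bases 2 to 8 from the 5′ end. In mouse T cells the miR-29 family is known for restraining interferon gamma, the hallmark cytokine of type 1 helper cells, through the messenger RNA of the cytokine itself and those of the transcription factors T-bet and Eomes. In other tissues it is known for repressing collagens, the survival factor Mcl1 and the DNA methyltransferases.

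The study hybridised 5 microarrays of 2 channels, each with total RNA of activated CD4+25- mouse T cells in one channel and of CD4+25- T cells with no activation named in the other. The title of the series calls the unactivated cells naive. These are helper T cells without the CD25-positive population, in which regulatory T cells are concentrated. The activated cells were taken overnight (1 array, activated RNA in Cy5), at day 3 (2 arrays, activated RNA in Cy5 on one and in Cy3 on the other) and at day 10 (2 arrays, likewise 1 of each dye). Strain, age, number of animals and the means of activation are unstated in the labels, as is whether the 2 arrays of a time held separate RNA extracts. Values below are log2 ratios of activated over naive RNA, after the 2 arrays with activated RNA in Cy3 were multiplied by -1. Cy5 over Cy3 was taken as the deposited direction, since it gives activated minus normal, the order of the array titles, on the 3 arrays with activated RNA in Cy5. That reading is likely but not stated, as is the log base, and with the opposite reading each sign below changes.

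The array medians over the microRNA probes were -1.75 overnight, 0.20 (Cy5) and 1.42 (Cy3) at day 3, and -0.51 (Cy5) and -0.38 (Cy3) at day 10. The median over probes, not the miR-29 probes alone, therefore differed between arrays, and each value is given as deposited and after its array's median was subtracted (centred). After all ratios were turned to activated over naive, the 2 arrays of a time, which have opposite dyes, correlated across the 171 probes at 0.43 for day 10 and 0.66 for day 3. Among the 3 arrays with activated RNA in Cy5 the correlations ran between 0.27 and 0.47. Probes of an array share its RNA and hybridisation and are not replicates.

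The mature sequences are shown because they differ little between the members, which bears on what each probe could bind. They are the 3p arms, the strand that carried the plain miR-29 names, from RefSeq on GRCm38.p6, with the seed in capitals. Each probe was matched to a sequence by the number and letter of its ID, and the probe sequences themselves were not analysed here.
miR-29a-3p: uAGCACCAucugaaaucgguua
miR-29b-3p: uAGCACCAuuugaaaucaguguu
miR-29c-3p: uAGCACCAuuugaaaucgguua

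All 3 members carry the same seed, whose reverse complement in a target is UGGUGCU. Of the 1679 mature mouse microRNAs in the RefSeq table, these 3 (0.179%) were the ones with this seed at bases 2 to 8. With positions counted from 1 at the 5′ end, miR-29a-3p and miR-29c-3p differ at 1 of 22 positions, C10U with the miR-29a base first. miR-29b-3p is 1 base longer and differs from miR-29c-3p by G18A, U21G and A22U, with the miR-29c base first. Cross-hybridisation between the 3 probes was not tested. The platform annotation names a gene for 1org-29a only, with the human symbol MIRN29A, and its gene ID is not in the mouse gene table. Probes 1org-29b and 1org-29c have no annotated gene and are called by their IDs.

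The family is made from 4 hairpins at a pair of loci, shown because 1 probe reads product of both. The mature 3p strand is in capitals, and positions are on GRCm38.p6. Mir29a lies at chr6:31062660-31062747 and Mir29b-1 at chr6:31063023-31063093, both on the minus strand with 275 bases between them. Mir29b-2 lies at chr1:195037040-195037120 and Mir29c at chr1:195037547-195037634, both on the plus strand with 426 bases between them.
Mir29a: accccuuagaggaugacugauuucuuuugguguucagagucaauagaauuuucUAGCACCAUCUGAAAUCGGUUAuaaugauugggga
Mir29b-1: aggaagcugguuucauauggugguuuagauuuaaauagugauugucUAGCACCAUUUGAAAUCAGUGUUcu
Mir29b-2: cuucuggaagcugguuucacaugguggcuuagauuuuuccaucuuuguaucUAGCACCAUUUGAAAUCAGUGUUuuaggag
Mir29c: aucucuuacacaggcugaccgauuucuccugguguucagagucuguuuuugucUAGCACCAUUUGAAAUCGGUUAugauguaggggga

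Mature miR-29b is identical from both loci, so probe 1org-29b cannot tell chromosome 6 from chromosome 1, while 1org-29a belongs to the chromosome 6 pair and 1org-29c to the chromosome 1 pair.

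Overnight, all 3 miR-29 probes were below 0 as deposited, near the median of -1.75 of that array. Probe 1org-29a had a log2 ratio of -1.93 (0.262 times the naive signal), 1org-29c of -1.91 and 1org-29b of -1.32. All 3 passed the 2-fold size rule on the lower side, which asks for a mean log2 ratio at least 1 from 0 with the same sign on every array of the time, as did 73.1% of all microRNA probes. After centring the values were -0.18 for 1org-29a, -0.17 for 1org-29c and 0.43 for 1org-29b, and none of the 3 was 2-fold lower, against 4.09% of all probes. By rank of the log ratio on that array, given as the percentile among the 171 microRNA probes counted from the lowest, the 3 probes stood at 39.8 (1org-29a), 42.1 (1org-29c) and 66.1 (1org-29b). The overnight array has no dye-swapped partner, so no spread can be given. In a limma fit of all 5 arrays, which estimated each time and a common dye effect, 1org-29c was the 1 member called lower overnight (-1.91, SE 0.71, adjusted p = 0.0288), beside 38.6% of all probes. The SE and p of that single overnight array come wholly from the spread of the day 3 and day 10 pairs and assume that it varies like them. Within a comparison of this fit the members share the same SE, which is pooled over probes. It does not show the spread of the named probe. After centring this fit called none of the members lower (adjusted p from 0.83 to 0.91), and 1.17% of all probes.

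At day 3, the 3 probes lay below most microRNAs on both arrays, with deposited values between -1.17 and 0.58. Probe 1org-29a read -1.17 with activated RNA in Cy5 and 0.01 with it in Cy3, a mean of -0.58 ± 0.84 (SD, n = 2 arrays). The pair thus disagreed on whether miR-29a was lower. Centred, the same probe read -1.37 and -1.41, a mean of -1.39 ± 0.03, and the gap between its 2 arrays was the 7th smallest of 171. Probe 1org-29c read -0.53 in Cy5 and -0.40 in Cy3, a mean of -0.47 ± 0.09. Centred, it read -0.73 and -1.82, a mean of -1.28 ± 0.77, so its pair agreed more closely before centring than after it. Probe 1org-29b read -0.33 in Cy5 and 0.58 in Cy3 (0.13 ± 0.64), or -0.53 and -0.84 after centring (-0.68 ± 0.22).

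As deposited, no miR-29 probe reached 2-fold lower at day 3, against 12.9% of all probes. On the Cy5 array alone 1org-29a was at -1.17, and on the Cy3 array alone at 0.01. After centring 2 members were 2-fold lower, 1org-29a and 1org-29c, against 19.9% of all probes. In the limma fit over 5 arrays no member was called at day 3 as deposited, at unadjusted p from 0.20 to 0.78, while 12.9% of all probes were called lower. After centring it called 1org-29a (-1.39, SE 0.38, adjusted p = 0.0012) and 1org-29c (-1.28, SE 0.38, adjusted p = 0.0032) lower, beside 21.1% of all probes, and not 1org-29b (adjusted p = 0.16). The p-values of this fit rest only on how far the gap between the Cy5 and Cy3 arrays differed between the day 3 and day 10 pairs. That spread is pooled over probes, may be technical, and need not hold the spread between RNA extracts.

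**Figure D1:**
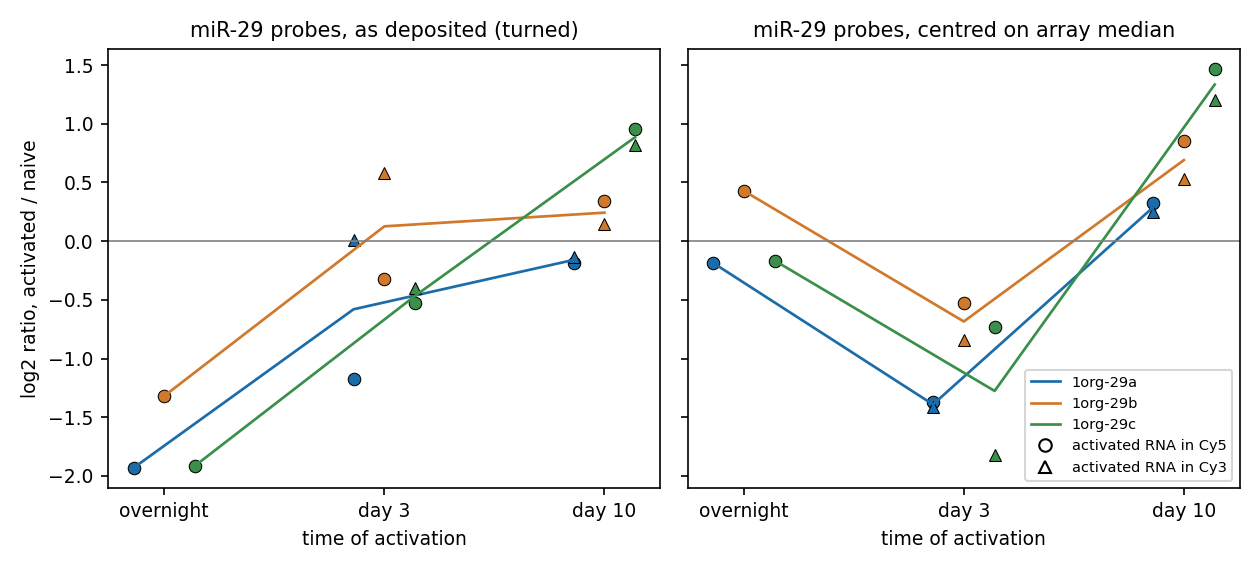
Log2 ratio of activated over naive RNA for 1org-29a, 1org-29b and 1org-29c overnight, at day 3 and at day 10, as deposited and turned (left) and after centring each array on its median (right). Points are arrays, circles with activated RNA in Cy5 and triangles in Cy3, and lines join the means of the times; after centring the 3 probes are lowest at day 3 and highest at day 10.

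At day 10, 1org-29c stood above the naive level on both arrays, and the other members lay close to it. Probe 1org-29c read 0.95 in Cy5 and 0.82 in Cy3, a mean of 0.89 ± 0.09 (1.85-fold, SD, n = 2 arrays), or 1.47 and 1.20 after centring (1.33 ± 0.19). Probe 1org-29b read 0.34 and 0.14 (0.24 ± 0.14), or 0.86 and 0.53 after centring (0.69 ± 0.23). Probe 1org-29a read -0.19 and -0.13 (-0.16 ± 0.04), or 0.33 and 0.25 after centring (0.29 ± 0.06), so its sign turned with centring. No member was 2-fold higher as deposited, against 9.94% of all probes, and after centring 1org-29c was, against 14.6%. Limma over 5 arrays called no member higher as deposited (adjusted p = 0.14 for 1org-29c, at an unadjusted p of 0.049), beside 7.02% of all probes. After centring it called 1org-29c higher (adjusted p = 0.0054), beside 14.0% of all probes, and neither 1org-29b (adjusted p = 0.22) nor 1org-29a (adjusted p = 0.75).

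The mean of day 10 was above that of day 3 for all 3 members, by an amount that depended on centring. As deposited the differences of day 10 minus day 3 were 1.35 for 1org-29c, 0.42 for 1org-29a and 0.12 for 1org-29b. The day 10 and day 3 arrays did not overlap for 1org-29c, whose lowest day 10 value was 0.82 and whose highest day 3 value was -0.40. For 1org-29a and 1org-29b the day 10 values lay between the 2 day 3 values. Only 1org-29c met the rule of a 2-fold difference without overlap as deposited, which 12.9% of all probes met. Without the Cy5 array of day 3 the differences were 1.29 for 1org-29c, -0.17 for 1org-29a and -0.34 for 1org-29b. Without the Cy3 array of day 3 they were 1.42, 1.01 and 0.57 in that order. Centring adds 1.26 to each difference of the means, giving 2.61 for 1org-29c (6.10-fold), 1.68 for 1org-29a (3.20-fold) and 1.37 for 1org-29b (2.59-fold). All 3 then met the rule, as did 28.1% of all probes, and in size the differences were the 16th (1org-29c), 28th (1org-29a) and 37th (1org-29b) of 171.

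Limma over 5 arrays gave adjusted p = 0.0623 for 1org-29c, 0.60 for 1org-29a and 0.90 for 1org-29b between day 10 and day 3 as deposited, and called 8.77% of all probes higher. After centring it called all 3 members higher at day 10 than at day 3, with adjusted p = 2.57e-05 for 1org-29c, 0.0101 for 1org-29a and 0.0424 for 1org-29b, beside 21.6% of all probes. With arrays centred on all probes instead, transfer RNA and small nuclear RNA included, the call of 1org-29b was lost (1.29, limma adjusted p = 0.0578), and 2 members were called, beside 20.5% of all probes. Between day 10 and overnight the fit called 1org-29c higher as deposited (2.80, limma adjusted p = 0.0117), beside 13.5% of all probes, and no member after centring (1.84 for 1org-29c, adjusted p = 0.0786), beside 6.43%. The overnight side of that contrast is 1 array. The 3 probes read near-identical sequences on the same arrays and are not 3 independent observations.

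Ranks within an array, which neither centring nor scaling of that array alters, put day 10 highest, overnight next and day 3 lowest for each member. This measure was chosen after the values were seen. Probe 1org-29a stood at percentiles 60.8 and 64.3 on the day 10 arrays, against 17 and 22.2 on the day 3 arrays. Probe 1org-29b stood at 74.9 and 73.7 at day 10, against 30.4 and 29.2 at day 3. Probe 1org-29c stood at 84.2 and 89.5 at day 10, against 25.7 and 17.5 at day 3. No day 10 rank of a member was as low as any of its day 3 ranks, a condition that 35.7% of all probes met. The rises in mean rank were 111.5 places for 1org-29c, 76.0 for 1org-29b and 73.5 for 1org-29a, the 4th, 11th and 13th largest of 171.

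**Figure D2:**
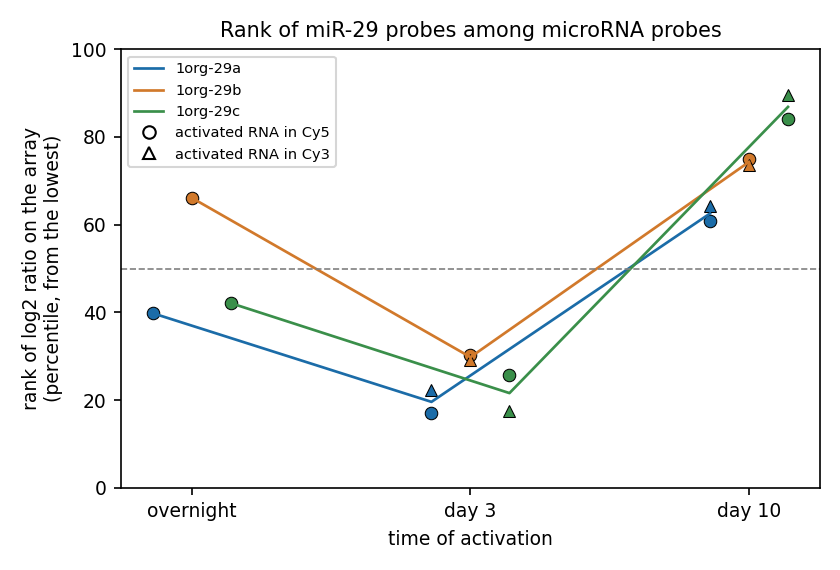
Rank of the log2 ratio of each miR-29 probe among the 171 microRNA probes of its array, as a percentile from the lowest, by time of activation, with the dashed line at the middle and lines joining the means of the times. Circles have activated RNA in Cy5 and triangles in Cy3; the day 10 percentiles run between 60.8 and 89.5, all above the day 3 percentiles, which run between 17 and 30.4.

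**Figure D3:**
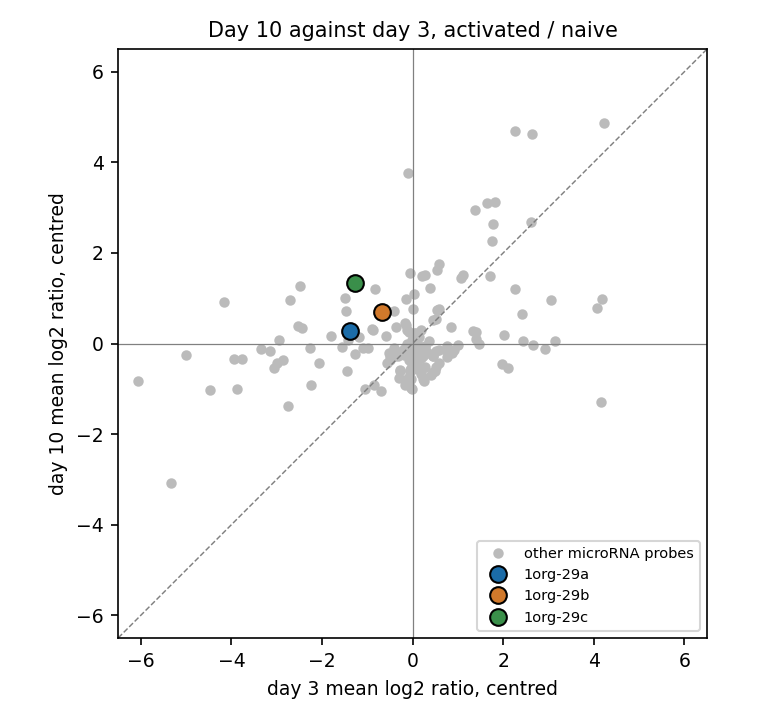
Mean log2 ratio of activated over naive RNA at day 10 (vertical) against day 3 (horizontal), centred, for the 3 miR-29 probes and the other microRNA probes, with the dashed line marking equal values. All 3 miR-29 probes lie above the line, below 0 at day 3 and above 0 at day 10, with 1org-29c at -1.28 and 1.33.

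Over all 3 times taken as replicates, no miR-29 probe passed the test against naive cells. The mean log2 ratios were -0.89 for 1org-29a, -0.50 for 1org-29c and -0.32 for 1org-29b (pooled SE 0.93, n = 3 times, limma adjusted p from 0.85 to 0.88). Limma called 0.0% of the 171 probes in this test, as deposited and after centring, and 11 passed at an unadjusted p under 0.05 in each case, none of them a member. A separate fit of the 5 arrays with a dye term and no time term called 10 probes (limma). No member passed there at an unadjusted p under 0.05, and that fit takes the 5 arrays as replicates. As deposited 1org-29a was below 0 at all 3 times, while the means of 1org-29b and 1org-29c differed in sign between times. This test leaves out the spread of naive RNA, which is on every array.

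The members also differed from each other, and these differences within an array do not depend on centring. The log2 ratio of 1org-29c was above that of 1org-29a by 1.14 and 0.95 on the day 10 arrays, against differences of 0.64 and -0.41 on the day 3 arrays and 0.02 overnight. It was above that of 1org-29b by 0.61 and 0.68 at day 10, against differences of -0.20 and -0.98 at day 3 and -0.59 overnight. The order of 1org-29b and 1org-29c was thus opposite at day 10 and at day 3 on all 4 arrays. The log2 ratio of 1org-29a was below that of 1org-29b on all 5 arrays, with differences from -0.28 to -0.85. No test was made of these differences, and a dye effect that differs between probes is part of each single-array value. Mature miR-29b, made at both loci, had the highest mean of the 3 overnight and at day 3. At day 10 it lay between the members of the single loci, with 1org-29c at 0.89, 1org-29b at 0.24 and 1org-29a at -0.16.

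Likeness of pattern was measured as the root mean square difference of centred log2 ratios over the 5 arrays. The members lay 0.34 (1org-29b), 0.39 (1org-29a) and 0.43 (1org-29c) from their own mean, which they form. The other probes closest to that mean were 1org-106b (0.51), 2org-28 (0.57), 1org-7e (0.59), 1org-186 (0.62) and 1org-194 (0.66). For each member the single closest probe was not of the family, and the other members followed near the front of the order. The probes outside the family closest to 1org-29a were 1org-7e (0.26), numbered as let-7e, 1org-194 (0.41) and 2org-181c (0.45). Its distance to 1org-29b was 0.59, with 4 probes from outside the family nearer, and to 1org-29c 0.75, with 11 nearer. For 1org-29b the closest from outside were 2org-198 (0.43), 1org-186 (0.50) and 2org-28 (0.52), with 7 nearer to it than 1org-29a (0.59) and 9 nearer than 1org-29c (0.66). For 1org-29c 1 probe from outside, 1org-106b (0.49), was nearer than 1org-29b (0.66) and 1org-29a (0.75), and 1org-7i (0.81) and 1org-125a (0.91) lay farther than both.

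The mature strands that match the IDs of the closest probe to 1org-29a and of the closest to 1org-29c are printed to show their seeds, in capitals, neither of which is the miR-29 seed (RefSeq, GRCm38.p6). They come from chr17:17830366-17830387 on the plus strand and chr5:138165787-138165807 on the minus strand.
let-7e-5p: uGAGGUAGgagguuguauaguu
miR-106b-5p: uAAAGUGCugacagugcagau

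Probe 1org-106b, of a cluster known from dividing cells, was the closest probe to 1org-29c, at a distance that centring cannot change. Overnight it was at -0.97, against -1.91 for 1org-29c. It stood at 0.55 ± 0.07 at day 10, against -0.69 ± 0.05 at day 3 (SD, n = 2 arrays), a difference of 1.25, or 2.50 after centring. Probe 1org-7e stood at -0.37 ± 0.27 at day 10, against -0.62 ± 0.97 at day 3, and at 0.07 and -1.43 after centring.

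Set beside 4 other microRNA families, miR-29 had the least low median at day 3 and the highest median at day 10. Let-7, known for restraining growth, had a centred median of 0.24 at day 10, against -2.74 at day 3. Centred, 8 of the 8 listed let-7 probes were 2-fold lower at day 3, beside 19.9% of all probes. That list left out 1org-98, whose number is that of a microRNA counted with let-7. As deposited 1org-98 stood at 0.73 at day 3 and -0.20 at day 10, so it was not low at day 3. The miR-15/16 family, which restrains the cell cycle, had medians of 0.10 at day 10, against -2.49 at day 3, with 3 of 4 lower at day 3. For miR-30 the medians were -0.29 at day 10, against -2.25 at day 3 (4 of 6 lower at day 3). Its 6 probes include both 1org-30a and 1org-30a*, opposite strands of the same hairpin, so they do not all share a seed. Probe 1org-30a* was at -0.46 at day 3 as deposited. For miR-26 the medians were -0.30 at day 10, against -4.39 at day 3 (2 of 2). The miR-29 median was 0.69 at day 10, against -1.28 at day 3, with 2 of 3 lower at day 3. No test compares the families, and the median of all 171 probes was -0.12 at day 10 and 0.02 at day 3.

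Within those families the ranges were wide. At day 3, as deposited, let-7 probes ran between -3.66 (1org-7c) and -0.62 (1org-7e), miR-30 probes between -3.14 (1org-30b) and -0.17 (1org-30a), and miR-15/16 probes between -2.34 (1org-16) and 0.69 (1org-195). Probes 1org-26a (-4.19 ± 0.35) and 1org-26b (-2.96 ± 0.09) were both lower. The miR-29 values of -0.58 to 0.13 lay above the whole range of the listed let-7 probes, but below 1org-98 (0.73), which that list left out. For 1org-29b alone the value lay above the miR-30 range. All families were read on the same arrays against the same naive RNA. Every day 10 rank was above every day 3 rank for 8 of the 8 listed let-7 probes and 4 of the 6 listed miR-30 probes. It was so for 3 of 4 miR-15/16 and 2 of 2 miR-26 probes, and for the 3 miR-29 probes. The share over all probes was 35.7%.

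**Figure D4:**
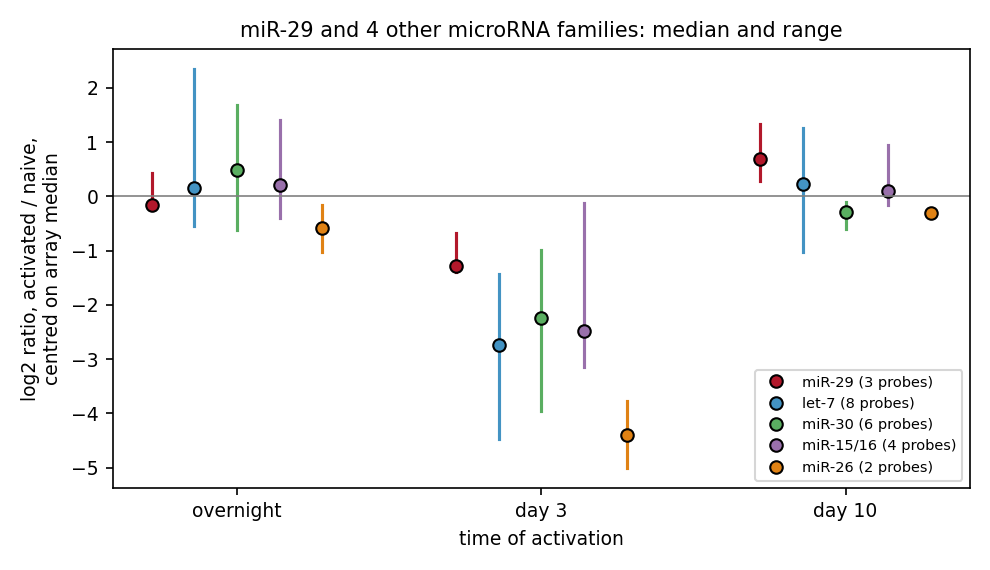
Centred log2 ratio of activated over naive RNA for the probes of 5 microRNA families at the 3 times; points are medians over probes and bars run from the lowest to the highest probe (time means). The miR-29 median is -1.28 at day 3, the least low of the 5, and 0.69 at day 10, the highest of the 5. The let-7 probes leave out 1org-98, and the miR-30 probes include 1org-30a*, the opposite strand to 1org-30a.

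A further 11 probes carry numbers of microRNAs that have been linked to interferon gamma or to type 1 helper cells, and they did not move as 1 group. As deposited, 3 were 2-fold higher at day 10 (9.94% of all probes were) and 4 lower (29 of 171), against 5 higher (38.0%) and 2 lower (12.9%) at day 3. After centring, 5 were higher (14.6%) and 2 lower (4.09%) at day 10, against 3 higher (15.2%) and 3 lower (19.9%) at day 3, and the list medians were 0.80 at day 10 and 0.04 at day 3. The list was drawn up with earlier results of these arrays known.

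Among those that support the cytokine, miR-155 (1org-155), known for targeting the signalling inhibitors Socs1 and Ship1, stood at 0.35 ± 0.18 at day 10, against 4.88 ± 0.01 at day 3. Its difference of -4.53 (-3.28 centred) was opposite in sign to the 3 miR-29 differences. Probe 2org-17-5p, of the miR-17 cluster, was at 2.15 overnight, 0.85 ± 1.08 at day 3 and 0.66 ± 0.21 at day 10. Probe 1org-148, whose number is that of a microRNA known to rise in repeatedly activated type 1 cells, stood at 3.31 ± 0.10 at day 10, against 0.72 ± 0.60 at day 3.

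Those reported to restrain the cytokine or to set T cell activation differed among themselves. Probe 1org-24 stood at 0.99 ± 0.12 at day 10, against 1.87 ± 0.61 at day 3, and all 3 probes of the miR-24 and miR-27 numbers were above 0 at both times. Probe 1org-27a stood at 1.19 ± 0.09 at day 10, against 1.36 ± 0.29 at day 3, and 1org-27b at 1.07 ± 0.28, against 1.93 ± 0.65. Probe 1org-146, numbered as the brake on NF-kappaB signalling, was at -1.21 ± 0.19 at day 10, against 0.70 ± 0.10 at day 3. Probe 1org-125b was at -1.22 ± 0.03 at day 10, against 1.03 ± 1.02 at day 3. Among the miR-181 probes, known for setting the sensitivity of the T cell receptor, 1org-181 stood at -3.52 ± 0.07 at day 10, against -4.53 ± 1.19 at day 3, and 2org-181b at -1.82 ± 0.84 against -1.94 ± 0.30. Probe 2org-181c was at -0.52 ± 0.24 at day 10, against -0.74 ± 1.47 at day 3.

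Ratios give no level in either cell population, so the labelled cell type could not be checked against absolute marker levels. In bulk RNA fewer cells of a type and less of an RNA per cell cannot be told apart. Over 25 probes of microRNAs known from myeloid, erythroid, epithelial and liver, neural, and stromal and muscle cells, none was 2-fold higher at day 10 than at day 3, as deposited (12.9% of all probes were) or centred (28.1%). As deposited 11 of the 25 were lower at day 10 than at day 3, against 41.5% of all probes, with a median difference of -1.44 beside -1.22 over all probes. After centring 4 of the 25 were lower, against 13.5% of all probes, and their differences ran between -5.46 and 0.99 around a median of -0.19, beside 0.04 over all probes. The part of other cells in the miR-29 values was not tested.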

How the data were processed

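The deposited table holds 1 log ratio per probe and array for 178 probes, with 0 missing values; the 7 transfer RNA and small nuclear RNA probes were left out. The values were read as log2 ratios as deposited. Per the labels and the table, the log base, numerator, scanner, background correction and normalization are unstated, signal over background is unknown, and the number of arrays limits the precision. Groups and dyes came from the labels. Arrays with activated RNA in Cy3 were multiplied by -1. Centring subtracted each array's median over the 171 microRNA probes.

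Values of a time were judged by size, not by a test, because both arrays of a pair may hold the same extracts; tests of single times come from the alternative fit. The dye effect of a probe enters the SD of its pair and cancels in the mean. Time means (n = 3) were tested against 0 over all probes with limma 3.58.1 in R 4.3.3 (lmFit, eBayes, 2-sided, Benjamini-Hochberg threshold 0.05). The alternative fit took the 5 arrays with time and dye terms, and a separate fit took them with a dye term and no time term. Limma was also run on simulated arrays. These held no array-wide shift, so that run does not bear on the effect of centring. The other alternatives were 3 scalings and leaving out arrays. Likeness and ranks used all 5 arrays.

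The probes named were the members, the 5 closest to their mean and the 3 closest to each, the list linked to interferon gamma, and the extremes at day 3 of 4 families. Members and lists were chosen with earlier results of these data known.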

Additional observations from a re-analysis of the deposited data

Results flagged for a closer look

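Differences between times were flagged for the miR-29 probes, those of 1org-29a and 1org-29b after centring only. As deposited, 1org-29c was above 0 on both day 10 arrays and below 0 on both day 3 arrays. That difference of 1.35 was not called (limma over 5 arrays, adjusted p = 0.0623). The same probe was 2.80 higher at day 10 than overnight in that fit (adjusted p = 0.0117), beside 13.5% of all probes. After centring that difference was 1.84 and was not called (adjusted p = 0.0786). The overnight value comes from 1 array without a dye swap, so its spread is taken from the other times. After centring, each member was above 0 on both day 10 arrays and below 0 on both day 3 arrays. The centred differences of day 10 minus day 3 were 1.68 for 1org-29a (adjusted p = 0.0101), 1.37 for 1org-29b (adjusted p = 0.0424, but 0.0578 with arrays centred on all probes) and 2.61 for 1org-29c (adjusted p = 2.57e-05). These centred calls stood beside 21.6% of all probes, and centring adds 1.26 to each difference.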

How the results depend on the processing

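Centring decided most calls. The mean of the 3 miR-29 probes overnight was -1.72 as deposited, 0.027 centred on the microRNA probes, 0.014 centred on all probes and -2.21 with arrays on one scale. In the same 2 centrings it was -1.12 and -1.03 at day 3 (-0.31 as deposited), 0.77 and 0.78 at day 10 (0.32), and 1.89 and 1.80 for day 10 minus day 3 (0.63). Overnight 1org-29b turned to 0.43 and 0.42. Both centrings gave 0 members lower overnight (3 as deposited), 2 lower at day 3 (0), 1 higher at day 10 (0) and 3 higher at day 10 than at day 3 (1). For these counts with arrays centred on all probes, no share of all probes is given. With arrays on one scale 1org-29c was at 1.03 at day 10, against 0.89 as deposited. Limma over 5 arrays called 1 member lower overnight and 0 higher at day 10 than at day 3 as deposited. Centred, in settings chosen after seeing the data, it called 0 lower overnight, 2 lower at day 3 and 1 higher at day 10 with either centring. For day 10 against day 3 it called 3 centred on the microRNA probes and 2 centred on all probes, where 1org-29b was lost (adjusted p = 0.0578). Ranks, also chosen after seeing the data, gave 3.

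Without the Cy3 array of day 3, the day 3 values as deposited were -1.17 for 1org-29a, -0.53 for 1org-29c and -0.33 for 1org-29b. Day 10 minus day 3 was then 1.01 for 1org-29a, 1.42 for 1org-29c and 0.57 for 1org-29b. Without the Cy5 array of day 3, day 10 minus day 3 was -0.17 for 1org-29a and -0.34 for 1org-29b as deposited. Over all 3 times no setting called a member. There 1org-29b had a mean of -0.32 as deposited, 0.15 and 0.17 in the 2 centrings and 0.18 without the overnight array, where 1org-29c was at 0.21. The cause was not tested. No paired analysis was possible because the labels number no replicates. Without scanner signals, what signal over background limits is unknown.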
